A study of Rattus norvegicus with 9 samples.

Results

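Proximal convoluted tubule (PCT) nuclei were followed across 9 single-nucleus ATAC-Seq libraries of whole rat kidney. They were all nuclei whose deposited cell type label was PCT, 14293 of 53298 nuclei (26.8%), and each was joined by its barcode to its position on the deposited UMAP, a 2-dimensional map on which nuclei with similar chromatin accessibility lie close together. The label was given by the authors to clusters of nuclei, from accessibility at marker genes. Peak counts and gene activities were not analysed here, so that the label could not be checked against Slc5a2, Slc5a12, Slc34a1, Lrp2 and Hnf4a, genes of the proximal tubule, of which some are also active in its straight part.

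The libraries came from male Sprague-Dawley rats in 5 groups, with an age of 6 weeks in the labels. The study's methods state no age, and give 6 weeks as the time from the first DOCA injection to sacrifice for most rats. Whether the label means age or that time cannot be told. Control rats had sham surgery, injections of oil alone and tap water. DOCA rats lost 1 kidney, were injected each week with 50 mg/kg of deoxycorticosterone acetate (DOCA), a mineralocorticoid, in oil, and drank salt water, with a daily gavage of vehicle. The Finerenone, Spironolactone and Amiloride groups shared the surgery, DOCA and salt (the labels give the loss of a kidney for all of them, the study's methods for all but Amiloride), and received by gavage, in place of the vehicle, finerenone (10 mg/kg/d) or spironolactone (50 mg/kg/d), which block the mineralocorticoid receptor, or amiloride (20 mg/kg/d), which blocks the epithelial sodium channel. Control therefore differed from every other group in surgery, salt intake and hormone at once, and whether Control rats were gavaged was not stated. Each group had a library from a chromatin-only kit (scATAC) and another from a kit that reads RNA and chromatin of the same nucleus (Multiome), except Amiloride, which had a Multiome library only. Kit and rat cannot be told apart within a group, and p values measure the spread between these libraries. Whether the paired DOCA libraries, the paired Spironolactone libraries, or the Control Multiome and the Amiloride library came from the same rat was not stated, although their codes resemble each other.

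The proximal tubule takes back most of the water, glucose, phosphate, amino acids and filtered protein that pass the glomerulus. Its convoluted part lies first, in the cortex, and holds the sodium-glucose transporter Slc5a2, the phosphate transporter Slc34a1 and the endocytic receptor Lrp2 (megalin), under transcription factors such as Hnf4a. The straight part (PST) follows it toward the medulla. Injured proximal tubule cells (iPT) lose much of that transport program and are known for expressing Havcr1 and Vcam1.

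The libraries held between 1817 and 15235 nuclei, and between 531 and 4197 PCT nuclei. In the scATAC kit there were 1094 PCT nuclei in Control, 709 in DOCA, 531 in Finerenone and 1098 in Spironolactone. In the Multiome kit there were 793 in Control, 1275 in DOCA, 1284 in Finerenone, 4197 in Spironolactone and 3312 in Amiloride. The Spironolactone Multiome and Amiloride libraries together thus weigh most in anything pooled over nuclei, and the comparisons below were made over libraries. A barcode that also occurred in another library was carried by 693 PCT nuclei (4.85%), between 0.846% and 7.06% of those in a library. Leaving those nuclei out changed no call on the PCT shares or on their neighbours.

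PCT was the most frequent label over all nuclei pooled. In the Multiome kit, however, PST outnumbered it in Control and Finerenone, and iPT outnumbered it in DOCA. As a share of all nuclei PCT differed between the kits as well as between the groups. In the scATAC libraries it took 44.6% (95% exact binomial interval 42.6 to 46.6) of Control nuclei, 28.7% (26.9 to 30.5) of DOCA nuclei, 29.2% (27.1 to 31.4) of Finerenone nuclei and 40.4% (38.5 to 42.2) of Spironolactone nuclei. In the Multiome libraries it took 15.6% (14.6 to 16.6) of Control, 13.9% (13.2 to 14.7) of DOCA, 20.9% (19.9 to 22.0) of Finerenone, 27.5% (26.8 to 28.3) of Spironolactone and 40.2% (39.2 to 41.3) of Amiloride nuclei. Every group with both kits had its higher share in the scATAC library, and DOCA was the lowest group within each kit, although in the scATAC kit its interval overlapped that of Finerenone. Finerenone lay below Control in the scATAC kit and above it in the Multiome kit. The intervals cover counting error only and are narrower than the gaps between libraries of one group.

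The group means of these shares were 30.1% ± 20.5 in Control, 21.3% ± 10.4 in DOCA, 25.1% ± 5.86 in Finerenone and 34.0% ± 9.05 in Spironolactone (SD, n = 2 each). Counted within the proximal tubule, that is among PCT, PST and iPT nuclei together (PT nuclei), the PCT share no longer depends on how many nuclei of other segments were caught. In Control it was then 54.9% (52.7 to 57.1) with the scATAC kit and 37.7% (35.6 to 39.8) with the Multiome kit. In DOCA it was 44.5% (42.0 to 47.0) with the scATAC kit and 31.9% (30.4 to 33.3) with the Multiome kit. Finerenone had 42.9% (40.1 to 45.7) with the former and 39.5% (37.8 to 41.2) with the latter kit. Spironolactone had 53.1% (51.0 to 55.3) with the former and 46.5% (45.5 to 47.5) with the latter. The Amiloride library stood apart from the other 8 libraries with 82.2% (81.0 to 83.4). The group means were 46.3% ± 12.2 in Control, 38.2% ± 8.94 in DOCA, 41.2% ± 2.39 in Finerenone and 49.8% ± 4.69 in Spironolactone (SD, n = 2 each), so that in percentage points the libraries of a pair differed less than they did as shares of all nuclei in 4 of 4 groups.

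**Figure D1:**
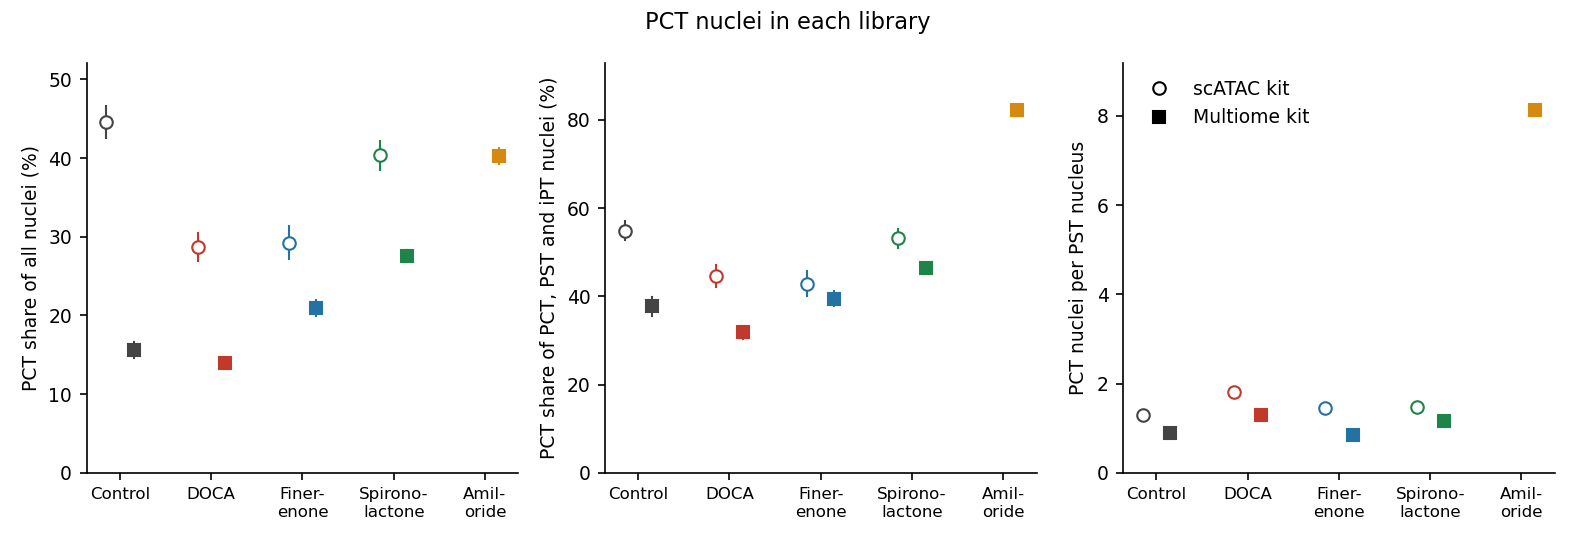
PCT nuclei in each library, as a share of all nuclei (left), as a share of PCT, PST and iPT nuclei (middle) and per PST nucleus (right), with open circles for the scATAC kit, filled squares for the Multiome kit and bars for 95% exact binomial intervals in the first panels. The scATAC library of each pair lies above its Multiome partner in every panel, and the Amiloride library lies at 82.2% of PT nuclei and at 8.14 PCT nuclei per PST nucleus.

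The share of each label was tested with limma on the log2 odds (nuclei with the label over nuclei without it), fitted over all 9 libraries with terms for group and kit, and Benjamini-Hochberg adjustment over the 12 labels. Among the groups with both kits, no comparison passed for the PCT share of all nuclei. The PCT share was lower in the Multiome than in the scATAC kit, by -1.23 (SE 0.40, adjusted p = 0.0159). Amiloride exceeded DOCA by a log2 change of 2.01. That difference rests on 1 Amiloride library, whose own spread could not be measured. It lay between 1.86 and 2.11 with 1 other library left out, and was 1.40 without the kit term. The kit difference did not pass without either library of Control (-0.93, adjusted p = 0.0612), of DOCA (adjusted p = 0.14) or of Spironolactone (adjusted p = 0.0588). The DOCA difference from Control was -0.59 (95% interval -1.74 to 0.55, adjusted p = 0.401) and was 0.0059 without the Control scATAC library. Finerenone (0.37, interval -0.77 to 1.52, adjusted p = 0.729) and Spironolactone (0.99, interval -0.15 to 2.13, adjusted p = 0.211) were not shown to differ from DOCA, and the intervals allow differences of either sign.

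Within PT nuclei the Amiloride library exceeded Control by a log2 change of 2.72 and DOCA by 3.21. With 1 of the other libraries left out, the former lay between 2.38 and 2.93 and the latter between 3.05 and 3.30. Leaving out other libraries does not test the Amiloride library itself. With the centred log-ratio in place of the log odds the difference from Control was 1.5. The DOCA difference from Control was -0.49 (interval -1.38 to 0.41, adjusted p = 0.309), that of Finerenone from DOCA 0.19 (interval -0.70 to 1.09, adjusted p = 0.647), that of Spironolactone from DOCA 0.70 (interval -0.20 to 1.59, adjusted p = 0.196), and that between the kits -0.59 (interval -1.22 to 0.04, adjusted p = 0.179). A trended and robust variance let the last pair pass (adjusted p = 0.0297 for Spironolactone and adjusted p = 0.0104 for the kit). Finerenone (-0.29), Spironolactone (0.21) and Finerenone against Spironolactone (-0.51) were not shown to differ from Control or from each other. Amiloride has a single library, whose spread the model took to equal that of the paired groups, so only sizes are given for its comparisons.

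PST and iPT, the other labels of the proximal tubule, were tested in the same limma model. Within PT nuclei PST fell by 1.17 in DOCA against Control (adjusted p = 0.037) and iPT rose by 2.78 (adjusted p = 0.0131), while the PCT difference named above did not pass. The PST call was lost without either library of Control, of DOCA or of Spironolactone (-1.40 to -0.95, adjusted p = 0.0588 to 0.257), and without the kit term (adjusted p = 0.0803). The iPT call was lost without either DOCA library (2.74 to 2.82, adjusted p = 0.159 to 0.169), and when the variance was trended and robust (adjusted p = 0.0503). The iPT difference was 1.24 without the Control scATAC library (adjusted p = 0.133) and 4.33 without the Control Multiome library (adjusted p = 3.28e-06). The single Amiloride library was lower than DOCA by 1.70 in PST and by 3.18 in iPT, whereas it was higher in PCT. With the centred log-ratio these differences were -0.50 for PST and -1.68 for iPT. Against Control the Amiloride library was lower in PST by 2.88 (-1.69 with the centred log-ratio), and differed in iPT by -0.39. No p value is given for these Amiloride differences, since they rest on 1 library. Neither PST nor iPT passed in Finerenone against DOCA (0.91 for PST and -1.28 for iPT, adjusted p = 0.153 and adjusted p = 0.23) or in Spironolactone against DOCA (0.92 and -2.11, adjusted p = 0.163 for each). The same held for Finerenone against Control (-0.27 and 1.5), Spironolactone against Control (-0.26 and 0.67), Finerenone against Spironolactone (-0.0081 and 0.83) and the kits (0.33 and 0.73).

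As shares of all nuclei, iPT rose by 2.39 in DOCA against Control (adjusted p = 0.000892). The single Amiloride library was lower than DOCA by 2.65 in iPT, and lower than Control by 2.45 in PST. Only sizes are given for these Amiloride differences, whose own spread could not be measured. With 1 Control library dropped, the iPT rise in DOCA was 1.16 (Multiome kept) or 3.62 (scATAC kept). With 1 DOCA library dropped it lay between 2.31 and 2.48. Such fits leave 1 library in a group, so they do not test the call. With 1 library other than Amiloride dropped, the Amiloride difference from DOCA in iPT lay between -2.92 and -2.34. That from Control in PST lay between -3.15 and -2.03. With arcsine square roots of the shares in place of log odds, the iPT rise in DOCA did not pass (adjusted p = 0.063 with limma). Without the kit term the Amiloride differences were -2.62 in iPT from DOCA and -2.68 in PST from Control. With thinned libraries the latter was -2.23. In PCT the Amiloride library was higher than Control by 1.42. For shares of all nuclei limma gave the 12 labels 1 pooled SD of 0.564, against residual SDs of 1.01 for iPT, 0.498 for PST and 0.468 for PCT alone. Within PT nuclei the SD used was 0.755 for iPT and 0.408 for PCT, against 1.27 and 0.259 alone. The p values of iPT thus rest on a smaller spread than its own and those of PCT on a larger one. The 3 shares add up to the whole of the PT nuclei, so that they are not independent of each other.

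These calls stand beside the following background over the 12 labels, in either direction. As shares of all nuclei, 25.0% of labels passed in DOCA against Control, 0% in Finerenone, 8.33% in Spironolactone and 8.33% in Amiloride against Control. Against DOCA, 16.7% passed in Finerenone, 0% in Spironolactone and 33.3% in Amiloride, while 8.33% passed in Finerenone against Spironolactone and 25.0% between the kits. With PT and remaining nuclei as denominators, 50.0% passed in DOCA, 0% in Finerenone, 8.33% in Spironolactone and 25.0% in Amiloride against Control. Against DOCA, 25.0% passed in Finerenone, 0% in Spironolactone and 58.3% in Amiloride, while 8.33% passed in Finerenone against Spironolactone and 8.33% between the kits. In the comparisons where 0% passed with limma, 1 label had an unadjusted p under 0.05 in Finerenone against Control and 3 labels in Spironolactone against DOCA, with either denominator.

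**Figure D2:**
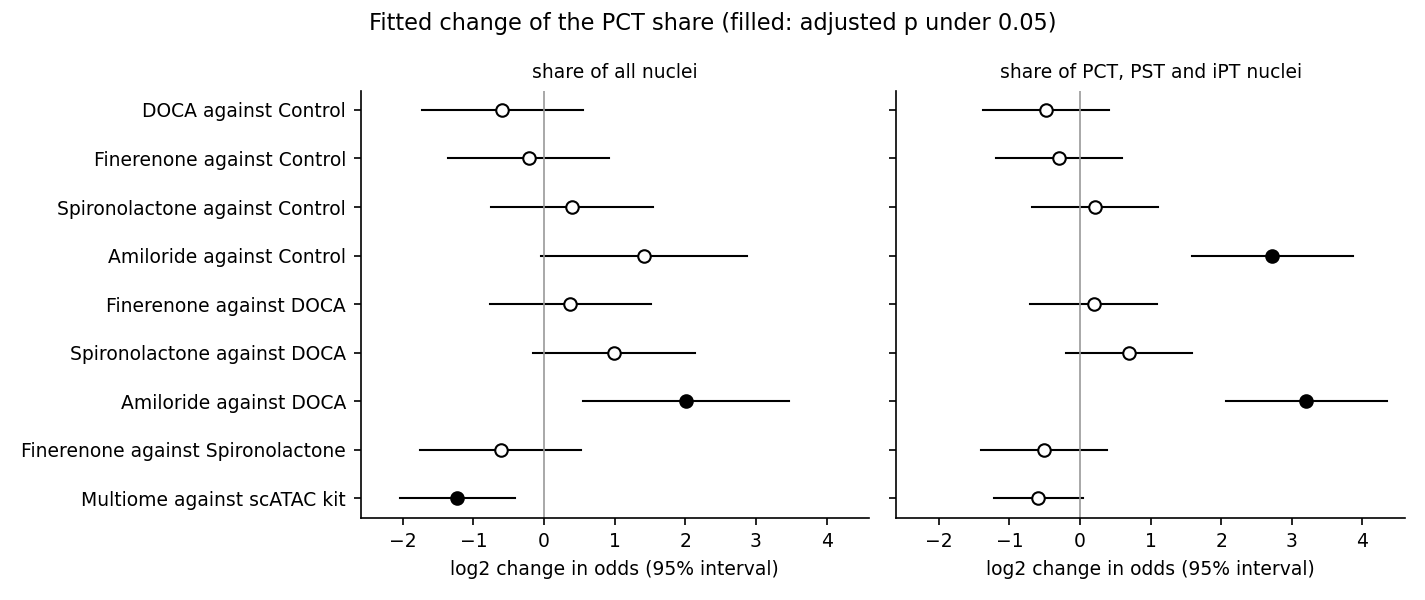
Fitted change of the PCT share in each comparison, as log2 change in odds on the horizontal axis with its 95% interval, for the share of all nuclei (left) and of PCT, PST and iPT nuclei (right). Filled points have an adjusted p under 0.05. Among all nuclei these are Amiloride against DOCA (2.01) and the kits (-1.23), and among PT nuclei Amiloride against Control (2.72) and against DOCA (3.21). The Amiloride points rest on a single library, whose spread was taken from the other groups, so only their sizes are read.

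The ratio of convoluted to straight tubule nuclei was higher in DOCA than in Control within each kit. In the scATAC kit there were 1.3 PCT nuclei per PST nucleus in Control, 1.81 in DOCA, 1.45 in Finerenone and 1.47 in Spironolactone. In the Multiome kit there were 0.885 in Control, 1.3 in DOCA, 0.838 in Finerenone, 1.16 in Spironolactone and 8.14 in Amiloride. DOCA was thus the highest of the 4 groups with both kits, by a log2 difference from Control of 0.48 (scATAC) and 0.55 (Multiome), and Amiloride exceeded DOCA by 2.65 within the Multiome kit. Group labels were permuted within kits, an exact test in which the smallest p is 0.00833 over 120 distinct regroupings, and in which DOCA against Control alone could not go below 0.5. The ratio gave p = 0.025 by that permutation, and adjusted p = 0.163 over the 13 ratio and UMAP measures of this family. Without the Amiloride library the permutation gave p = 0.125.

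The ratio of PCT to iPT nuclei ran over a wider range. In the scATAC kit it was 19.2 in Control, 1.44 in DOCA, 1.56 in Finerenone and 5.01 in Spironolactone. In the Multiome kit it was 1.91 in Control, 0.732 in DOCA, 2.95 in Finerenone, 3.46 in Spironolactone and 10.6 in Amiloride. DOCA had the lowest ratio in each kit, but the Control libraries lay farther apart than any other pair (57 and 415 iPT nuclei, scATAC before Multiome), and by the exact permutation the groups did not pass (p = 0.325, adjusted p = 0.352).

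On the UMAP the PCT nuclei formed a compact body with few outliers. Linked at 0.5 UMAP units, 14043 of them (98.3%) fell into a single island, and the other 250 were spread over small islands (54 islands in all, the next largest with 69 nuclei). The median distance of a PCT nucleus from the centre of all PCT nuclei was 2.26 UMAP units, and 95% lay within 3.37. By library that median ran from 2.08 (Finerenone scATAC) to 2.35 (DOCA Multiome), and the groups did not pass (exact permutation within kits, p = 0.325, adjusted p = 0.352). UMAP units have no physical meaning and a UMAP does not keep long distances, so the values below are used only to set libraries beside each other. The share outside the island was between 0.457% and 1.09% in the scATAC libraries and between 1.41% and 2.98% in the Multiome libraries.

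The kits were well mixed among PCT nuclei after the authors' batch correction, and the libraries less evenly. Of the 15 nearest PCT nuclei of a PCT nucleus, those of its own library were 1.02 to 1.69 times as frequent as the library's part of all PCT nuclei (median 1.21), with the highest value in the DOCA Multiome library. The corresponding ratios were 1.12 to 3.36 among PST and 0.985 to 5.97 among iPT nuclei. Nuclei of the same kit were 0.984 to 1.05 times as frequent as their part, and those of the other library of the same group 0.977 to 1.39 times, with the highest value again in the DOCA Multiome library, whose nuclei had 6.90% DOCA scATAC nuclei among these neighbours against 4.96% of all PCT nuclei.

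Where within that body the nuclei of each group lay is shown by the map of PCT nuclei on the UMAP and is given as a description. The median second coordinate was -4.91 and -5.06 in Control, -3.35 and -2.88 in DOCA, -3.65 and -4.11 in Finerenone, -4.02 and -4.04 in Spironolactone and -4.34 in Amiloride (scATAC before Multiome here and below). The iPT nuclei had a median of -0.456 on that axis and the PST nuclei of -4.94. On that axis DOCA nuclei therefore lay nearest to the iPT side and Control nuclei farthest from it in each kit. The median first coordinate was 2.30 to 2.35 in DOCA and 3.05 to 3.35 in Control, against -0.141 for iPT and -2.59 for PST. The median distance to the centre of all PST nuclei was 5.35 to 5.43 in DOCA and 5.88 to 6.12 in Control, so DOCA nuclei also lay nearer to PST. In squares of 0.5 UMAP units, the square that held most DOCA nuclei was centred at 1.75 and -2.75, below the iPT outline, and held 2.82% of PCT nuclei in each of the DOCA libraries. The same square held 0.183% and 0.126% in Control, 1.32% and 0.389% in Finerenone, 0.638% and 0.762% in Spironolactone and 0.181% in Amiloride. The square that held most Control nuclei, centred at 3.25 and -6.25, held 2.29% and 2.77% in Control and 0.423% and 1.33% in DOCA. These squares were chosen for their values, which are given as a description.

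**Figure D3:**
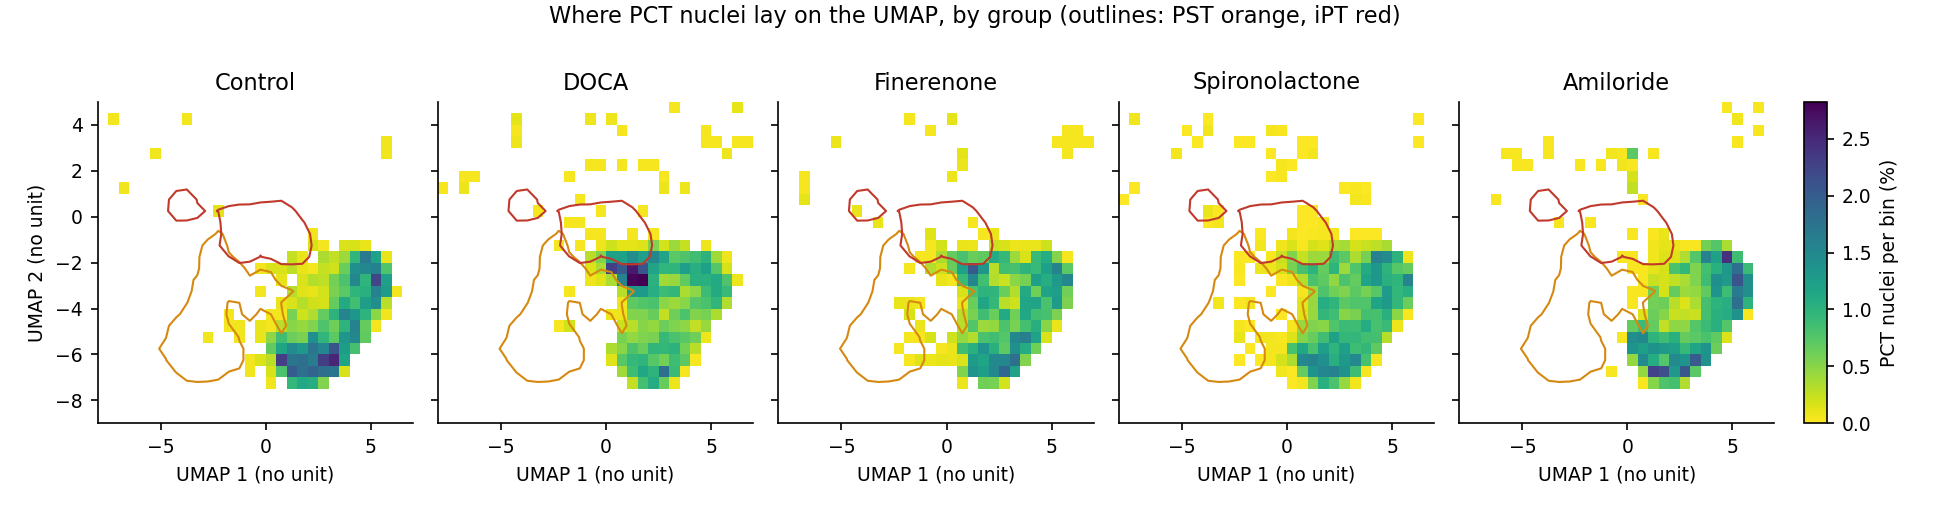
Share of the PCT nuclei of each group per square of 0.5 UMAP units (colour, % of PCT nuclei, mean over the libraries of the group), with both UMAP axes in units without physical meaning. Orange and red outlines enclose squares with at least 30 PST and iPT nuclei over all libraries. The darkest DOCA square (2.82%) lies below the iPT outline with a square between them, and meets at a corner a square with 33 PST nuclei. Control and Amiloride nuclei are densest along the lower and right edges, away from both outlines. The window leaves out 54 PCT nuclei.

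Contact with the other labels was read from the 15 nearest nuclei of each PCT nucleus, whatever their label or library. Since labels and map came from one set of accessibility profiles, the level of contact is a description, and only its differences between libraries were tested. On average 92.2% of these neighbours were PCT, 3.82% PST and 1.82% iPT. LOH, the loop of Henle, came next over all nuclei pooled with 0.645%, although it was the third most frequent label of the series with 11.5% of nuclei. A total of 8799 PCT nuclei (61.6%) had PCT neighbours only, 3940 (27.6%) had a PST neighbour, 1029 (7.20%) had an iPT neighbour and 377 (2.64%) had both. For 614 nuclei (4.3%) fewer than 8 of the 15 neighbours were PCT. Over all libraries pooled, the most frequent other label around them was iPT for 211, PST for 182 and LOH for 84. The order differed between libraries, with PST ahead of iPT in both Control libraries (13 to 1 and 6 to 4), Finerenone Multiome (27 to 24) and Spironolactone scATAC (20 to 12), and LOH ahead in Amiloride (37, against 17 for iPT).

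The share of PCT nuclei with at least 1 iPT neighbour was highest in DOCA within each kit. An iPT neighbour was present for 2.29% and 2.27% of PCT nuclei in Control, 14.1% and 17.7% in DOCA, 12.6% and 7.09% in Finerenone, 6.65% and 7.93% in Spironolactone and 2.90% in Amiloride. Both DOCA libraries lay above all others, the Control libraries and Amiloride lay lowest, and the Finerenone pair was the most spread. The group means were 15.9% ± 2.56 in DOCA, 2.28% ± 0.0108 in Control, 9.85% ± 3.91 in Finerenone and 7.29% ± 0.909 in Spironolactone (SD, n = 2 each). DOCA exceeded Control by 11.8 percentage points in the scATAC kit and by 15.5 in the Multiome kit. Finerenone differed from DOCA by -1.49 and -10.6 points and Spironolactone by -7.46 and -9.79 points. Over the 5 groups the exact permutation within kits gave p = 0.0667 (adjusted p = 0.186), so the difference did not pass. Counted as the mean share of iPT among the 15 neighbours, DOCA (3.23%) and Finerenone (3.24%) were level with the scATAC kit, whereas with the Multiome kit DOCA had 4.75% and Finerenone 1.96% (exact permutation p = 0.1, adjusted p = 0.186).

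The abundance of iPT nuclei in a library enters this measure. With neighbours from the other libraries only, the shares with an iPT neighbour were 2.38% and 2.40% in Control, 13.3% and 16.3% in DOCA, 11.9% and 7.09% in Finerenone, 6.74% and 8.05% in Spironolactone and 4.11% in Amiloride (exact permutation p = 0.0583). With every library thinned to 1817 nuclei they were 2.79% and 2.60% in Control and 17.2% and 25.1% in DOCA (p = 0.05 by the same permutation). DOCA was the highest group in each kit under both settings. Thinning did not equalise iPT nuclei, of which 41 and 140 were left in Control and 354 and 370 in DOCA, and the part of their abundance in the result was not tested. In the Control Multiome library, iPT was 19.7% (18.0 to 21.5) of PT nuclei, and its iPT nuclei had 1.45% PCT neighbours, against 2.32% to 6.69% in the other libraries, and their own library was 5.97 times over-represented among their iPT neighbours.

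PST was the more frequent contact in every library. It was also the more frequent label over all nuclei pooled, with 18.4% against 9.81% for iPT. A PST neighbour was present for 25.2% and 18.7% of PCT nuclei in Control, 33.3% and 34.0% in DOCA, 33.1% and 24.1% in Finerenone, 28.7% and 28.2% in Spironolactone and 26.1% in Amiloride. DOCA was the highest group in each kit, closely followed by Finerenone in the scATAC kit, and the groups did not pass (exact permutation p = 0.217, adjusted p = 0.313). With neighbours of the own library only, the shares were 29.3% and 25.1% in Control and 22.8% and 28.5% in DOCA, so that the direction turned in the scATAC kit and in the mean of the kits. PST took 42.2% and 42.6% of Control PT nuclei and 24.6% of those in each DOCA library.

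PCT nuclei surrounded by PCT alone were fewest in DOCA. Their share was 67.5% and 72.4% in Control, 50.6% and 48.5% in DOCA, 54.0% and 64.9% in Finerenone, 62.1% and 60.7% in Spironolactone and 65.2% in Amiloride (exact permutation p = 0.0917, adjusted p = 0.186). DOCA differed from Control by -16.8 points in the scATAC kit and by -23.8 in the Multiome kit. The mean share of PCT among the neighbours was 94.9% and 94.5% in Control, 90.2% and 87.2% in DOCA, 90.9% and 90.7% in Finerenone, 92.6% and 92.2% in Spironolactone and 93.9% in Amiloride (p = 0.0417 by the same permutation, adjusted p = 0.181). Nuclei outnumbered by other labels made up 1.83% and 3.03% in Control, 5.36% and 8.47% in DOCA, 4.71% and 6.93% in Finerenone, 3.73% and 4.19% in Spironolactone and 2.81% in Amiloride (p = 0.0167 by the same permutation, adjusted p = 0.163). Finerenone lay between DOCA and Control in each of the measures of this paragraph and in each kit, and so did Spironolactone.

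Labels outside the proximal tubule took 1.17% and 2.40% of the neighbours in Control, 1.72% and 3.29% in DOCA, 1.1% and 3.36% in Finerenone, 1.52% and 1.80% in Spironolactone and 2.28% in Amiloride. The Multiome library was the higher of each pair and the groups did not pass (exact permutation p = 0.683, adjusted p = 0.683). LOH neighbours, the most frequent of these when nuclei were pooled, were 0.280% and 0.193% in Control, 0.564% and 0.758% in DOCA, 0.414% and 1.03% in Finerenone, 0.389% and 0.516% in Spironolactone and 0.982% in Amiloride. Endothelial neighbours were more frequent than LOH in both Control libraries (0.506% and 0.513%) and in the Spironolactone scATAC library (0.565%). In the Control Multiome library intercalated cell neighbours were more frequent still (0.740%).

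**Figure D4:**
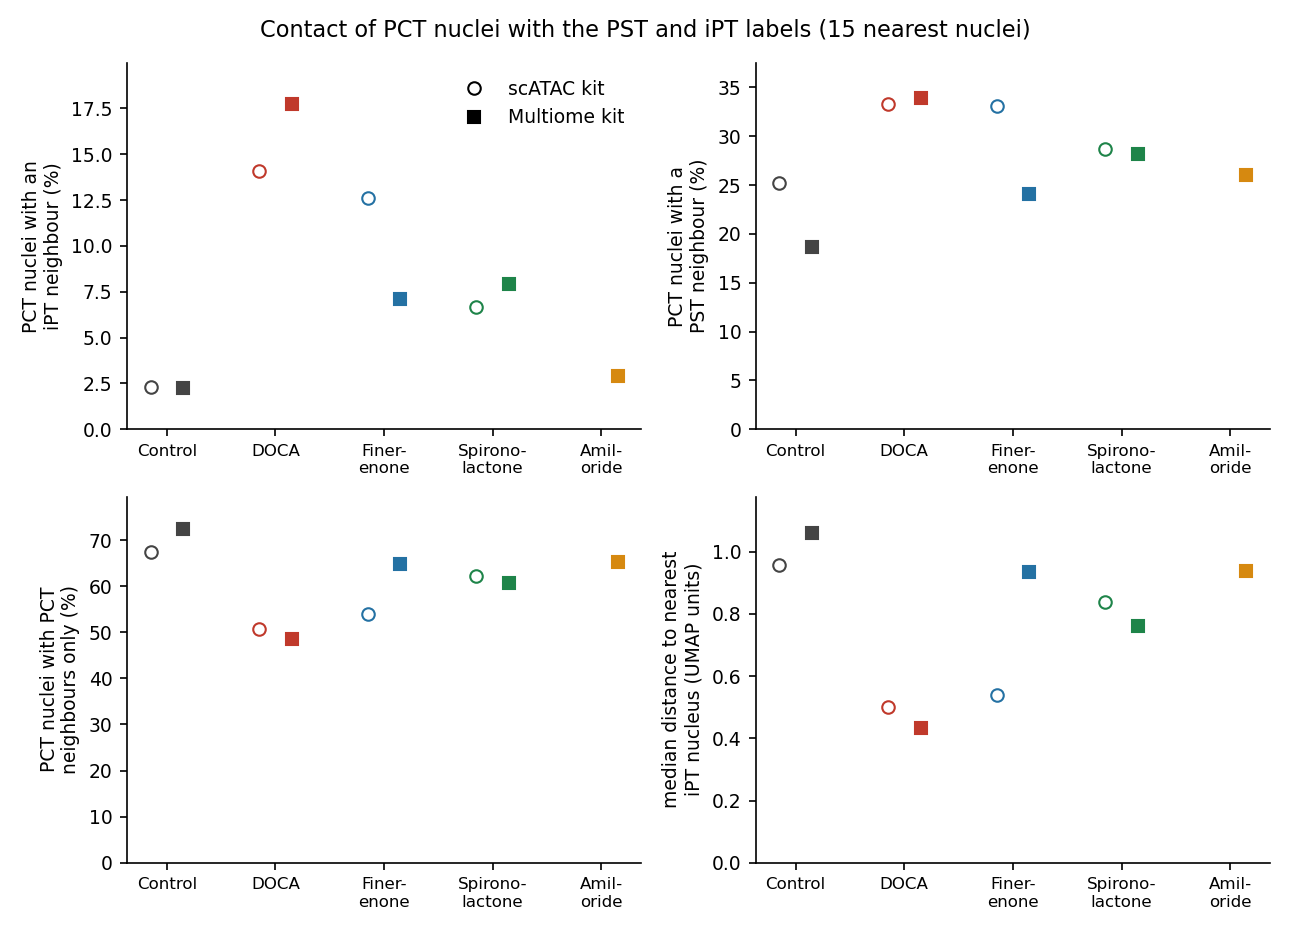
Contact of PCT nuclei with the PST and iPT labels in each library, from the 15 nearest nuclei on the UMAP (open circles scATAC kit, filled squares Multiome kit), with percent of PCT nuclei on the vertical axis in the first 3 panels and UMAP units in the last. Both DOCA libraries lie highest for iPT neighbours (14.1% and 17.7%) and lowest for PCT neighbours only (50.6% and 48.5%) and for the distance to the nearest iPT nucleus (0.50 and 0.433).

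The distance to the nearest iPT nucleus gave the same order of groups within each kit as the shares with an iPT neighbour. The median distance of a PCT nucleus to the nearest iPT nucleus was 0.958 and 1.06 UMAP units in Control, 0.50 and 0.433 in DOCA, 0.538 and 0.935 in Finerenone, 0.839 and 0.760 in Spironolactone and 0.938 in Amiloride. Within each kit DOCA was the closest and Control the farthest, and the groups did not pass (exact permutation p = 0.208, adjusted p = 0.313). With iPT nuclei of the other libraries only, the medians were 0.960 and 1.06 in Control and 0.576 and 0.486 in DOCA. The median distance to the centre of all iPT nuclei, a point pooled over libraries to which the DOCA Multiome library gave 1742 of 5226 nuclei, was 5.78 and 6.00 in Control, 4.84 and 4.48 in DOCA, 5.03 and 5.72 in Finerenone, 5.48 and 5.40 in Spironolactone and 5.63 in Amiloride (p = 0.175 by the same permutation). The nearest PST nucleus was much closer in every library, with medians of 0.172 and 0.213 in Control, 0.139 and 0.143 in DOCA, 0.142 and 0.185 in Finerenone, 0.156 and 0.160 in Spironolactone and 0.173 in Amiloride (exact permutation p = 0.242, adjusted p = 0.314). PST nuclei also outnumbered iPT nuclei in the series (9783 against 5226), and the part of abundance in this was not tested.

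Divided by that distance, the PCT nuclei nearest to iPT, within 0.25 UMAP units, made up 7.95% and 6.43% of PCT nuclei in Control, 27.9% and 34.4% in DOCA, 26.0% and 14.7% in Finerenone, 17.0% and 17.2% in Spironolactone and 9.93% in Amiloride. Nuclei more than 1.5 units away made up 21.9% and 26.9% in Control, 12.8% and 14.5% in DOCA, 12.2% and 23.7% in Finerenone, 18.6% and 18.6% in Spironolactone and 23.6% in Amiloride. As a share of PT nuclei the nearest class was 4.37% and 2.42% in Control, 12.4% and 10.9% in DOCA, 11.1% and 5.81% in Finerenone, 9.05% and 7.99% in Spironolactone and 8.16% in Amiloride. The farthest class was 12.04% and 10.1% of PT nuclei in Control and 5.71% and 4.62% in DOCA, and 19.4% in Amiloride. In DOCA the nearest class was thus larger and the farthest smaller than in Control in each kit, also when counted against all PT nuclei. PCT nuclei with PCT neighbours only made up 37.0% and 27.3% of PT nuclei in Control and 22.5% and 15.5% in DOCA.

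**Figure D5:**
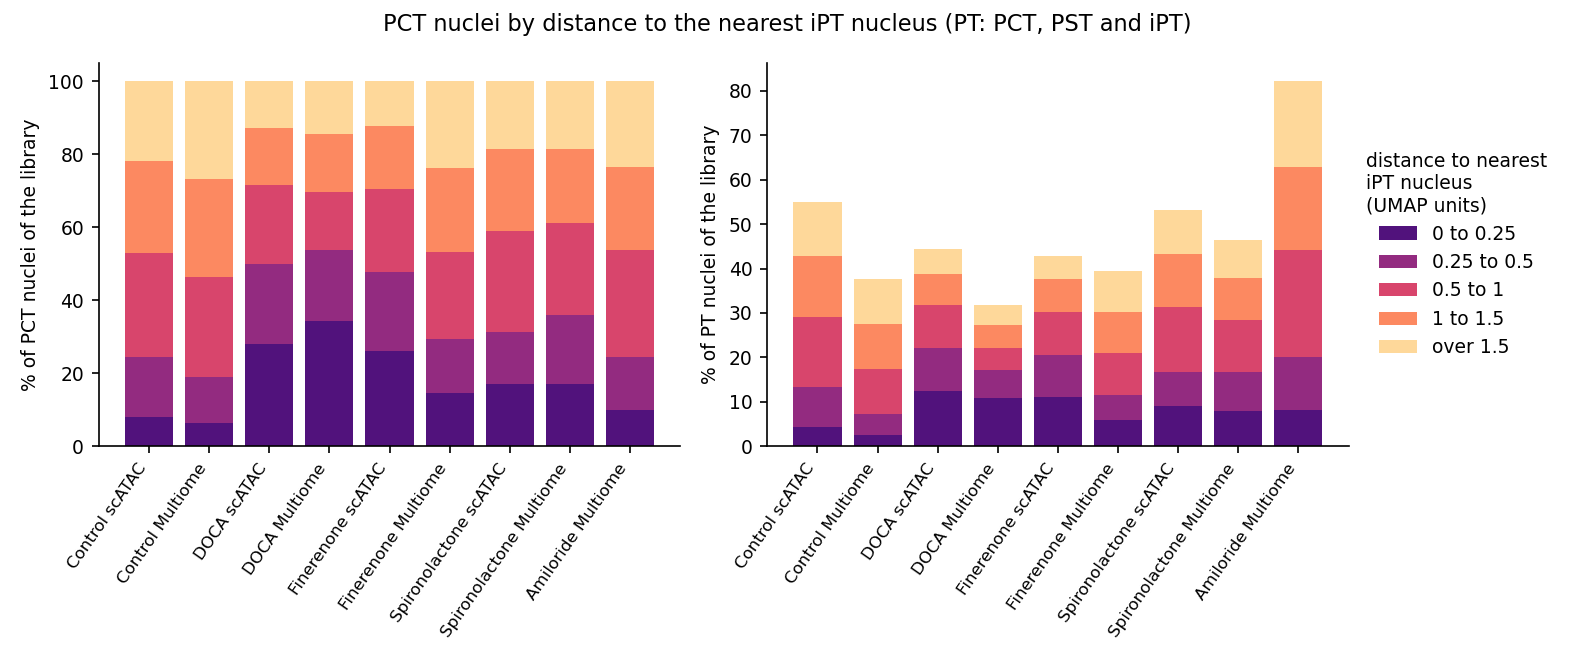
PCT nuclei of each library by distance to the nearest iPT nucleus in UMAP units (colours), stacked as % of PCT nuclei (left) and as % of PCT, PST and iPT nuclei (right). Within 0.25 units lie 27.9% and 34.4% of DOCA and 7.95% and 6.43% of Control PCT nuclei, and the full height of the right bars is the PCT share of PT nuclei.

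The nearness of DOCA nuclei to iPT was not shown to be particular to PCT. Among PST nuclei, an iPT neighbour was present for 2.26% and 3.35% in Control, 10.7% and 17.8% in DOCA, 9.54% and 4.83% in Finerenone, 6.54% and 5.87% in Spironolactone and 2.95% in Amiloride. The difference between PCT and PST nuclei of the same library, as log2 odds of having an iPT neighbour, was higher in DOCA than in Control by 0.43 in the scATAC kit and by 0.57 in the Multiome kit, and the groups did not pass (exact permutation p = 0.408). For the median distance to the nearest iPT nucleus, the DOCA minus Control difference of PCT exceeded that of PST by -0.29 and -0.33 UMAP units (p = 0.267 by the same permutation). From the side of the iPT nuclei, PCT made up 4.56% and 1.45% of their neighbours in Control, 5.01% and 5.28% in DOCA, 6.69% and 3.82% in Finerenone, 5.84% and 5.72% in Spironolactone and 2.32% in Amiloride.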

How the data were processed

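The authors prepared nuclei from whole kidneys, processed reads with Cell Ranger ATAC 1.1.0 against rn6, and in Signac 1.3.0 filtered and merged libraries, corrected batches with Harmony and named clusters. The deposited metadata give a library code, treatment and label per nucleus, and the deposited UMAP coordinates are a score without unit. Quality measures of single nuclei were not used here, and no doublet caller was run. Kits were assigned from shared barcodes: libraries of one kit shared at least 5, of different kits at most 1, and the single Amiloride library fixed which set was Multiome.

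Log2 of (count + 0.5)/(total - count + 0.5) was fitted with limma 3.58.1 in R 4.3.3 (threshold 0.05). Other measures were tested by exact permutation of group labels within kits (F of group after kit, 2880 assignments). Nearest neighbours came from scikit-learn 1.9.0 and exact binomial intervals from scipy 1.17.1 (Python 3.11.15). Both tests were tested on simulated data. PCT, PST and iPT were named in every comparison, with the label of most further contact. The members, lists and tests were chosen with earlier results of these data known. Settings that left out shared barcodes, dropped the kit from the neighbour and distance measures, compared PCT with PST, used the iPT centre, or changed the neighbours or thinned libraries for distances were added after the data were seen. It is unclear whether further libraries entered the authors' batch correction, since their methods count the merged sets differently in the supplement.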

Additional observations from a re-analysis of the deposited data

How the results depend on the processing

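Each pair of groups rests on 2 libraries a group and Amiloride on 1, so that the number of libraries limits these results. Of 118 values of the PCT share under other settings, 113 kept their direction and their side of the threshold, as did 140 of 158 values with 1 library left out. For the ratio and UMAP measures no adjusted p passed in any setting, and 68 of 73 differences of DOCA from Control kept their direction, as did 115 of 117 with 1 library left out. Many of these values could not differ from the main one. The difference uses DOCA and Control libraries only, so it stays the same without a library of another group or without the kit term. Fits of only the 2 groups compared could not be made for Amiloride, which leaves no residual degrees of freedom, and the cause of each change below was not tested.

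For the share of all nuclei, Amiloride against DOCA was 1.40 without a kit term, and with 1 library left out it lay between 1.86 and 2.11. The kit difference lay between -1.42 and -0.93 with 1 library left out. Amiloride against Control lay between 0.67 and 1.87. DOCA against Control lay between -1.19 and 0.0059, Finerenone against Control between -0.82 and 0.38, Finerenone against DOCA between -0.018 and 0.76, and Spironolactone against Control between -0.20 and 1.00. In these 4 the sign turned. For the share of PT nuclei, Amiloride against Control was 1.5 with the centred log-ratio, while Spironolactone against Control turned to -0.084. With 1 library left out the latter lay between -0.066 and 0.49, and Finerenone against DOCA between -0.069 and 0.45. A trended and robust variance let the kit (-0.59) and Spironolactone against DOCA (0.70) pass.

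Among differences of DOCA from Control (mean of the kits), the share of PCT nuclei with a PST neighbour turned to -1.56 points and the PST share of neighbours to -1.13 points with neighbours of the own library only. The difference in distance from the PCT centre, near 0 at 0.0025 UMAP units, turned to -0.0074 with the centre as a mean over libraries, -0.041 with thinned libraries and -0.025 as a root mean square, and lay between -0.054 and 0.059 with 1 library left out. The kit is a term of each test and so pairs libraries of different groups. Beyond the kit, no paired analysis was possible because the labels give no replicate number shared between groups.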
